A study of Mus musculus with 6 samples.

Results

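The exon junction complex (EJC) and the factors linked to it were examined in cultured mouse cortical neurons with and without FMRP. The 9 genes were chosen by name from what their proteins are known to do, as core subunits (Eif4a3, Rbm8a, Magoh, Magohb and Casc3), peripheral subunits (Rnps1, Acin1 and Sap18) and the disassembly factor Pym1. The choice was made with earlier results of these data known. All 9 were among the 55367 gene names of the count table, and all 9 passed the filter that left 16976 genes to be tested. RNA was from cells of C57BL/6J cerebral cortex, taken from pups at postnatal day 1 and kept for 2 days in vitro, with 3 WT and 3 Fmr1-KO libraries. The Fmr1-KO pups lack the fragile X protein FMRP in every cell, so the cultures do not isolate its loss from neurons. According to the study's methods, dissociated cells were depleted of ACSA2-positive astrocytes and of myelin before plating, and samples were independently derived. Neither the labels nor the methods used here give the number or sex of the pups behind a library or name a preparation batch, so P values measure the spread between these libraries. All comparisons are of Fmr1-KO relative to WT.

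The EJC is a set of proteins that the spliceosome leaves on an mRNA a short way upstream of each junction between exons. The ATPase eIF4A3 clamps the RNA, the heterodimer of Y14 (from Rbm8a) and MAGOH locks the clamp, and CASC3 joins it, mainly in the cytoplasm. The first ribosome to pass strips EJCs from the coding region with the help of PYM1, and an EJC that remains downstream of a stop codon can call in UPF3B, UPF2 and UPF1 and so trigger nonsense-mediated mRNA decay (NMD), the pathway this study followed. In the embryonic mouse cortex, losing a copy of Eif4a3, Rbm8a or Magoh is known to disturb neurogenesis and to reduce brain size.

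MAGOH is made from a pair of genes, and a count for either has meaning only if reads can tell them apart. Magoh (5 exons in its coding transcript, chromosome 4) encodes 146 residues and Magohb (also 5 exons, chromosome 6) encodes 148. Over the 438 aligned coding bases of their GENCODE M21 transcripts, 82 bases differed (81.3% identity). These differences fell in 76 codons, of which 75 were synonymous and only 1 changed the residue. The stretch below is the 60-base window inside a single exon with the most differences, and it is shown because the capitals, which mark the 15 differing bases, are what separates reads of near-identical proteins. In Magoh it lies in exon 1, on the plus strand of GRCm38 at chr4:107879862-107879921, and covers coding bases 5 to 64. In Magohb it lies in exon 1, on the minus strand at chr6:131293096-131293155, and covers coding bases 11 to 70.
Magoh: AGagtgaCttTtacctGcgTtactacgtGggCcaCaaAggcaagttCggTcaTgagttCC
Magohb: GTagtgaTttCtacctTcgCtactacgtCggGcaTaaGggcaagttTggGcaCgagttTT

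The longest run of coding bases that both share was 17, and 0 of the 669 distinct 100-base words of Magoh transcripts occurred in a transcript of another gene, 100 bases being the read length. Reads of this length therefore separated Magoh from Magohb. The other members with copies elsewhere were Sap18, with 12.1% of its words also found in Sap18b, Rnps1 (6.17%, in Gm9825), Eif4a3 (4.03%, in 3 predicted genes), Pym1 (2.61%, in Gm9353) and Rbm8a (0.483%, in Rbm8a2). Magohb, Casc3 and Acin1 shared words only with a gene annotated over the same place (24.1%, 9.28% and 3.27%). For Magohb that gene, Gm44958, lies on the same strand and covers 30.2% of its exon bases, so its count is the least certain of the 9.

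Libraries held 30348556 to 35126207 counts, a range of 1.16-fold, and the common biological coefficient of variation was 3.22%. Fmr1, the targeted gene, had 3656 to 4113 counts in WT and 1761 to 1972 in Fmr1-KO, and its log2 fold-change was -0.98 (SE 0.04; edgeR adjusted P 2.25e-13). At an adjusted P under 0.05, 42.6% of all tested genes were called, 20.7% as higher and 21.9% as lower. Of 12 pan-neuronal markers, all detected, 11 were lower, and their summed level was 5397 to 5534 CPM (the count divided by library size after TMM scaling) in WT and 4490 to 4707 CPM in Fmr1-KO. The 14 markers of proliferating cells were all called higher, with a sum of 796 to 843 CPM in WT and 1344 to 1391 CPM in Fmr1-KO. Astrocyte and oligodendrocyte lineage markers were also present. Of 7 astrocyte markers, 5 were lower and 0 higher (4531 to 4634 CPM summed in WT, 3834 to 4220 CPM in Fmr1-KO). All 7 oligodendrocyte lineage markers were lower (1882 to 2043 CPM and 1074 to 1158 CPM). Of the remaining lists, 4 of 8 progenitor markers were higher and 0 lower (2382 to 2396 CPM summed in WT, 2692 to 2762 CPM in Fmr1-KO), 5 of 6 microglial markers were lower (119.6 to 134 CPM and 76.0 to 83.3 CPM), and markers of excitatory neurons, GABAergic interneurons and vessels moved both ways. No marker was at 0. The part of this makeup in the results below was not tested, and in bulk RNA a change in the number of cells of a type cannot be told apart from a change in RNA per cell.

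EJC mRNAs differed little between the genotypes. Of the 9 members, 2 were higher (Acin1 and Rbm8a), 1 was lower (Rnps1) and 6 did not pass the threshold by edgeR. That is 33.3% called, against the 42.6% of all tested genes, so the members were not called more often than other genes. The median log2 fold-change was 0.04 over the members and 0.01 over all tested genes, and the median size regardless of sign was 0.06 and 0.15. Even the largest difference, that of Acin1, was larger in size than those of only 45.5% of tested genes. The libraries of the genotypes did not overlap for 4 of the 9 members (44.4%), as against 51.7% of all tested genes.

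**Figure D1:**
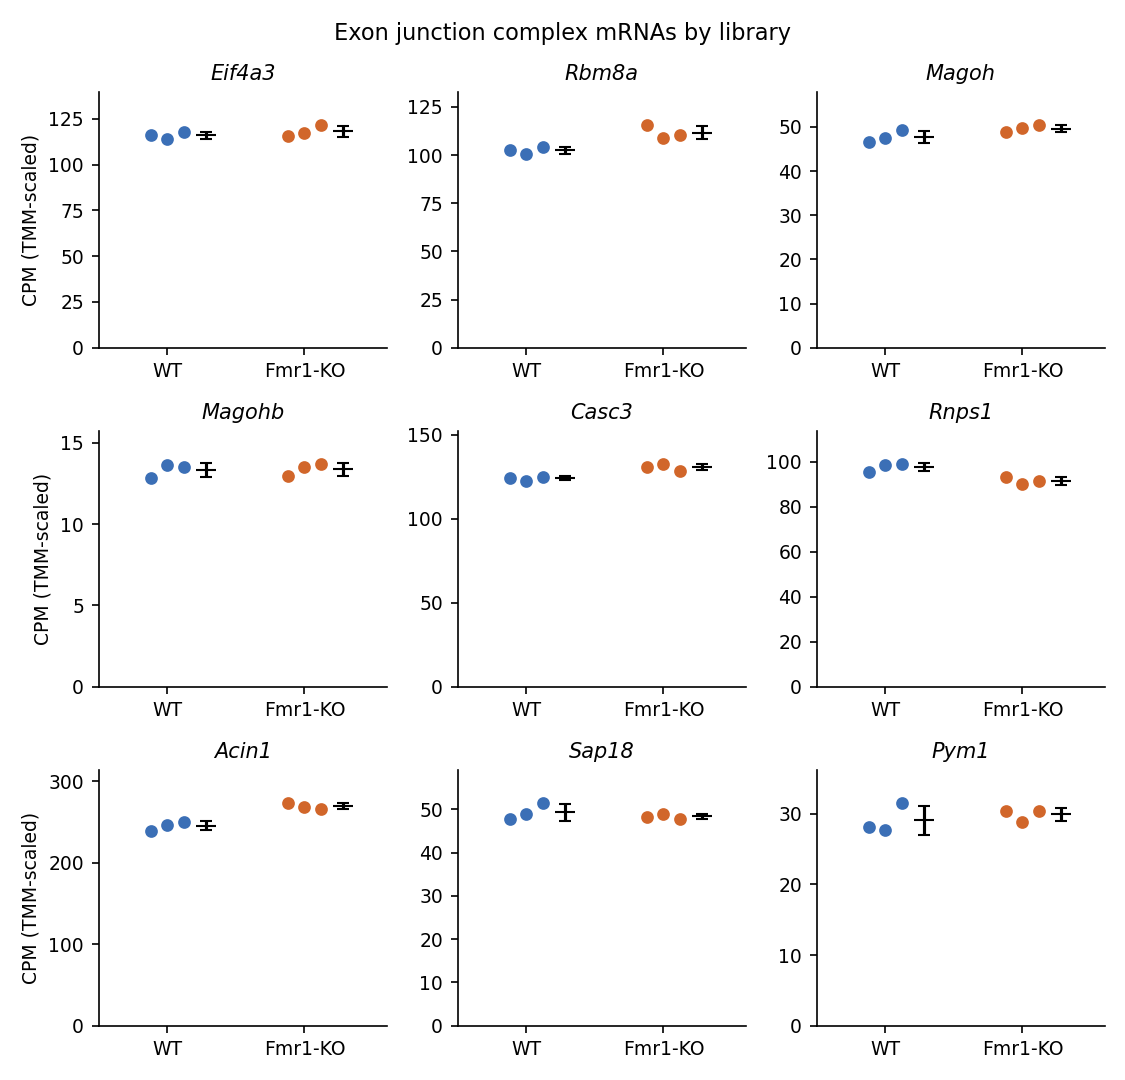
TMM-scaled CPM (vertical axis from 0) of each of the 9 members in the 3 WT (blue) and 3 Fmr1-KO (orange) libraries, with the mean and SD at the right of each group. All points of a gene lie close together, and the genotypes separate for Rbm8a, Casc3, Rnps1 and Acin1 only.

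Among the core subunits, Eif4a3 encodes the RNA clamp. It lies on the minus strand of chromosome 11, from 119288363 to 119300089 in GRCm38. Its level was 116, 114 and 118 CPM in the WT libraries and 116, 117 and 121 CPM in the Fmr1-KO libraries. The groups overlapped. The mean was 116 ± 2.05 CPM in WT and 118 ± 2.90 CPM in Fmr1-KO (SD, n = 3), and the log2 fold-change was 0.03 (SE 0.03; edgeR adjusted P 0.528). The 95% interval of that difference ran from -2.79% to 6.98% of the WT level.

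Rbm8a, which encodes Y14, the RNA-binding partner of MAGOH, was the only core gene to pass the threshold. It lies on the plus strand of chromosome 3, from 96629933 to 96633791. Its level was 102, 101 and 104 CPM in WT and 115, 109 and 110.5 CPM in Fmr1-KO, so every Fmr1-KO library lay above every WT library. The mean rose from 102 ± 1.74 to 112 ± 3.33 CPM (SD, n = 3), a log2 fold-change of 0.13 (SE 0.03; edgeR adjusted P 0.00520), or 9.08% with a 95% interval of 3.84% to 14.6%. The call was closest to the threshold without Fmr1-KO replicate 1, the highest library, where the log2 fold-change was 0.10 (edgeR adjusted P 0.0463).

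The MAGOH genes did not pass the threshold. Magoh (chromosome 4, from 107879755 to 107887424) had 46.5, 47.5 and 49.2 CPM in WT and 48.9, 49.7 and 50.4 CPM in Fmr1-KO. These groups overlapped by a single WT library, and the log2 fold-change was 0.06 (SE 0.04; edgeR adjusted P 0.285). Magohb (chromosome 6, from 131284388 to 131293244) had 12.8, 13.6 and 13.5 CPM in WT and 12.9, 13.5 and 13.7 CPM in Fmr1-KO. Its log2 fold-change was 0.00 (SE 0.07; edgeR adjusted P 0.966), and with 413 to 476 counts a library it had the widest interval of the 9, from -8.96% to 10.5%.

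Casc3, the cytoplasmic core subunit also called MLN51 or Barentsz, lies on chromosome 11 from 98804905 to 98833814. It had 125, 123 and 125 CPM in WT and 131, 132 and 129 CPM in Fmr1-KO. The groups did not overlap, but the log2 fold-change of 0.07 (SE 0.03) had an edgeR adjusted P of 0.0608 and was not called. It was called with upper-quartile normalization (edgeR adjusted P 0.0347), with library totals alone (edgeR adjusted P 0.0116) and with a stricter filter on low counts (edgeR adjusted P 0.0449). Summed over the 5 core genes, the level was 403, 398 and 409 CPM in WT and 424, 422 and 425 CPM in Fmr1-KO, with no overlap. The means differed by 4.98%, and by 7.03% when libraries were scaled by their totals alone.

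The peripheral subunits moved in unlike directions. ACIN1 (acinus) is the scaffold on which RNPS1 and SAP18 assemble into the ASAP complex, which sits on the EJC and influences splicing. Acin1 lies on the minus strand of chromosome 14, from 54642161 to 54686931. It was the most abundant member by counts, with 239, 246 and 249.8 CPM in WT and 273, 269 and 265 CPM in Fmr1-KO, and the groups did not overlap. Its mean rose from 245 ± 5.49 to 269 ± 3.61 CPM (SD, n = 3), a log2 fold-change of 0.13 (SE 0.03; edgeR adjusted P 0.000886), or 9.79% with a 95% interval of 5.18% to 14.6%.

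Rnps1, which encodes an SR-like protein that activates splicing and NMD when tethered to an mRNA, was the member called lower. It lies on chromosome 17 from 24414565 to 24425901. Its level was 95.5, 98.5 and 98.8 CPM in WT and 93.2, 89.9 and 91.4 CPM in Fmr1-KO. Every Fmr1-KO library lay below every WT library, and the log2 fold-change was -0.09 (SE 0.03; edgeR adjusted P 0.0328), a difference of -6.21% with a 95% interval of -10.7% to -1.50%. This call was lost under DESeq2 (adjusted P 0.0567), with library totals alone (-0.06, edgeR adjusted P 0.134), with upper-quartile normalization (edgeR adjusted P 0.0582) and with no filter (edgeR adjusted P 0.0580). It was also lost when replicate 2 or replicate 3 of either genotype was omitted, with adjusted P values from 0.0752 to 0.103 by edgeR.

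Sap18, the third ASAP subunit, which also binds the Sin3 histone deacetylase complex, lies on chromosome 14 from 57798180 to 57806638. It had 47.7, 48.8 and 51.4 CPM in WT and 48.3, 48.9 and 47.8 CPM in Fmr1-KO. Those ranges overlapped, and the log2 fold-change was -0.03 (SE 0.04; edgeR adjusted P 0.626). Pym1, the ribosome-bound factor that removes EJCs, lies on chromosome 10 from 128747889 to 128766564. It had 28.1, 27.8 and 31.5 CPM in WT and 30.5, 28.9 and 30.5 CPM in Fmr1-KO, with a log2 fold-change of 0.04 (SE 0.05; edgeR adjusted P 0.589). Its WT libraries were the most variable of the 9, with a coefficient of variation of 7.07%, as WT replicate 3 was high. Without that library its log2 fold-change was 0.10 (edgeR adjusted P 0.180) and still not called.

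**Figure D2:**
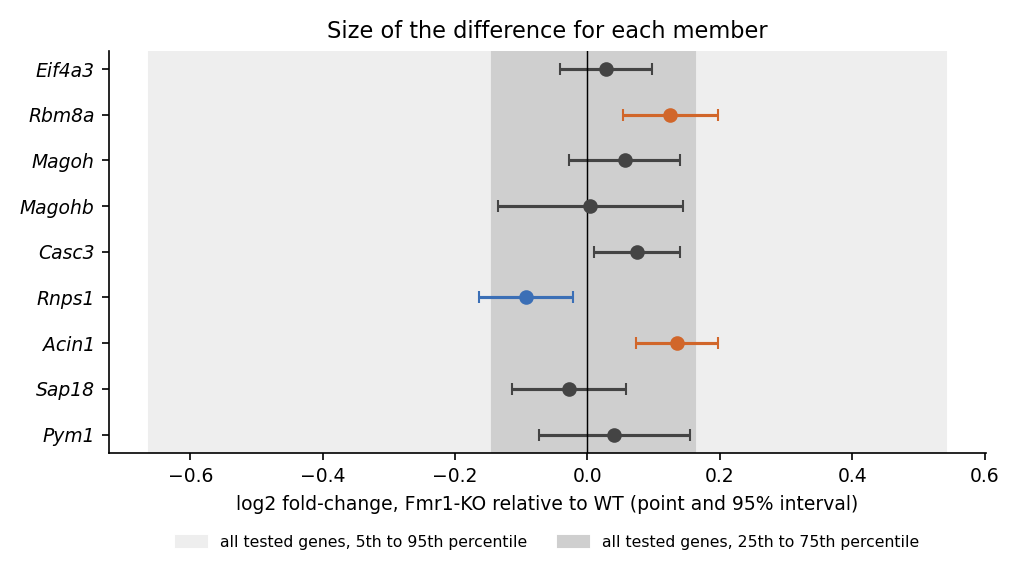
Log2 fold-change of each member in Fmr1-KO relative to WT (point) with its 95% interval (bar), coloured orange for called higher, blue for called lower and dark grey for not called, over grey bands for the middle 50% and 90% of all tested genes. The 9 points lie within the inner band, which runs from -0.14 to 0.16, and no interval reaches the edges of the outer band.

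The precision of these libraries limits how large an undetected difference could be. The 9 intervals ran from -10.7% (Rnps1) to 14.6% (Acin1) of the WT level at their extremes, both of called members. Over the 6 members not called they ran from -8.96% (Magohb) to 11.4% (Pym1). When a fold change above 1.2 was required, 0 of the 9 members were called by edgeR's glmTreat, against 13.1% of all tested genes, and the adjusted P of all 9 was then 1. With no minimum fold change, 4 of the 9 had an unadjusted P under 0.05 by edgeR's quasi-likelihood test, as did 49.4% of all tested genes.

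Ratios between members inside a library do not depend on how libraries are scaled. The 4 ratios of counts given here were chosen after the values above had been seen, so they restate those values without scaling and carry no test. The Acin1 to Rnps1 ratio was 2.503, 2.498 and 2.53 in WT and 2.92, 2.99 and 2.90 in Fmr1-KO, 17.1% greater on average. With Acin1 higher and Rnps1 lower and neither overlapping, this ratio could not overlap. The Acin1 to Sap18 ratio was 5.01, 5.04 and 4.86 in WT and 5.64, 5.50 and 5.55 in Fmr1-KO, or 11.9% greater.

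In the Y14 and MAGOH heterodimer, the ratio of Rbm8a to Magoh plus Magohb counts was 1.72, 1.65 and 1.66 in WT and 1.87, 1.73 and 1.73 in Fmr1-KO. The lowest Fmr1-KO library (1.7253) lay just above the highest WT library (1.7247), and the difference of 5.78% was 2.97% when Fmr1-KO replicate 1 was omitted. The Eif4a3 to Rbm8a ratio was 1.14, 1.13 and 1.13 in WT and 1.00, 1.08 and 1.10 in Fmr1-KO. It differed by -6.44% on average, and by -3.98% when the same library was omitted. The share of Magohb in the MAGOH pair was a planned comparison. Per kilobase of merged exons, Magohb made up 10.99%, 11.4% and 10.97% of Magoh plus Magohb in WT and 10.6%, 10.8% and 10.8% in Fmr1-KO. The groups did not overlap, and the difference was -0.353 percentage points (exact permutation P = 0.1, 2-sided, the smallest that 3 libraries against 3 allow), or -0.216 when WT replicate 2 was omitted. Magohb had only 413 to 476 counts a library, and neither gene of the pair was called. Whether so small a difference in share exceeds counting noise was not tested. The share itself depends on the lengths used, as in raw counts it was 21.8% in WT and 21.2% in Fmr1-KO.

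**Figure D3:**
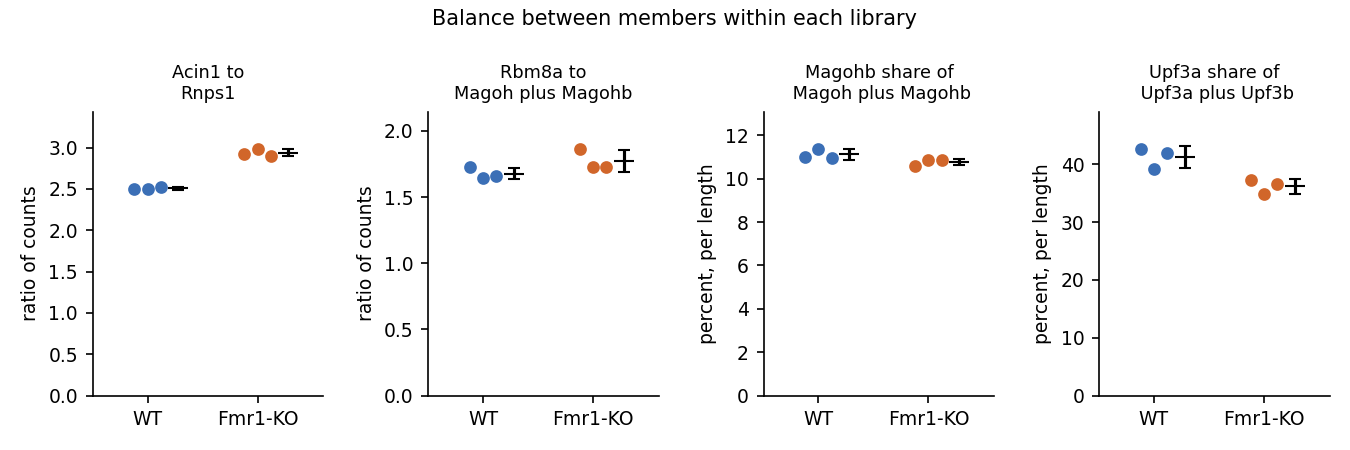
Balance between paralogs or subunits in each library (WT blue, Fmr1-KO orange, mean and SD at the right of each group, vertical axes from 0): Acin1 to Rnps1 and Rbm8a to Magoh plus Magohb as ratios of counts, and the Magohb and Upf3a shares of their paralog pairs in percent, per length. The mean Acin1 to Rnps1 ratio is 2.51 in WT and 2.94 in Fmr1-KO, and the mean Upf3a share is 41.2% and 36.2%.

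Levels were compared between members per length, as TMM-scaled CPM per kilobase of merged exons. In WT the order was Magoh (62.0 ± 1.78), Eif4a3 (54.6 ± 0.968), Rbm8a (31.8 ± 0.540), Casc3 (28.8 ± 0.276), Acin1 (23.3 ± 0.522), Pym1 (21.96 ± 1.55), Rnps1 (19.02 ± 0.361), Sap18 (9.06 ± 0.347) and Magohb (7.76 ± 0.257; SD, n = 3). Acin1 and Pym1 were the only neighbours in this order whose WT libraries overlapped. The order was the same in Fmr1-KO, where those 2 genes were also apart. Dividing by the principal transcript instead, which was chosen after the values were seen, raised Acin1 to 51.7 and Rnps1 to 50.8 per kilobase in WT and put Eif4a3 (76.8) above Magoh (69.0), while Magohb (17.4) and Sap18 (9.62) stayed lowest. Annotated exons of Acin1 and Rnps1 span 10527 and 5131 bases, against 4735 and 1920 in the principal transcript, so their place depends on which isoforms were present. The table sums reads by gene name and does not separate the 71 annotated transcripts of the 9 genes, of which 20 are annotated as retained introns and 3, all of Magohb, as NMD substrates.

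**Figure D4:**
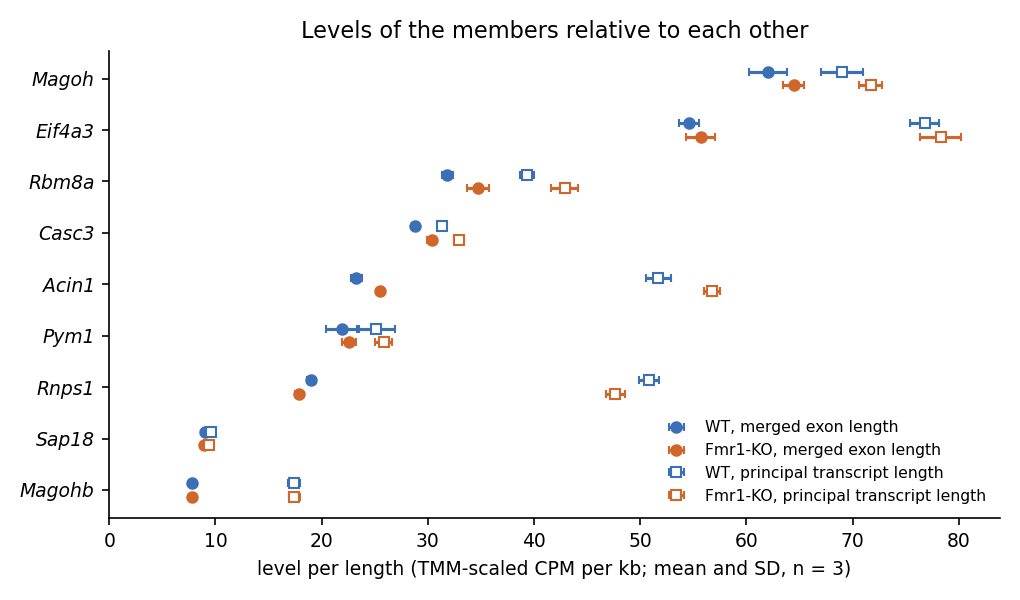
Level of each member per kilobase (TMM-scaled CPM per kb, mean and SD of 3 libraries) in WT (blue) and Fmr1-KO (orange), with circles for merged exon length and squares for principal transcript length. The length used moves Acin1 and Rnps1 far more than genotype moves any member.

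The genes whose pattern over the 6 libraries was most like that of Eif4a3, by the root mean square difference of log2 ratios to the WT mean, were Ptp4a2 (0.00679), Bbs4 (0.00786) and Rab8a (0.00957). Those most like Acin1, the member with the largest difference, were Hmgb1 (0.00922), Ano10 (0.0111) and Kdm1a (0.0125). Such likeness was common. Of 10754 other genes averaging 10 CPM or more, 1368 lay within 0.05 of Eif4a3 and 705 within 0.05 of Acin1.

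The proteins that place EJCs or act beside them came next. Of 10 EJC assembly and splicing partners, 6 were higher and 0 were lower by edgeR, at a median log2 fold-change of 0.09. That is 60% called, against 42.6% of all tested genes (20.7% higher and 21.9% lower). Srsf7, an SR protein that links splicing to export, was 207, 217 and 199.7 CPM in WT and 232, 231 and 235 CPM in Fmr1-KO (log2 fold-change 0.16, edgeR adjusted P 0.000326). Srsf3, a second SR protein of this kind, and Srrm2, a large scaffold of spliceosomes and nuclear speckles, also rose, both by 0.09. The call of Srrm2 was lost on leaving out any single WT library, and on leaving out Fmr1-KO replicate 2 it was 0.04, and that of Srsf3 was lost on omitting WT replicate 3 or Fmr1-KO replicate 3. Cwc22, which brings eIF4A3 to the spliceosome, had a log2 fold-change of 0.05 (edgeR adjusted P 0.514). Pnn, whose protein replaces ACIN1 on RNPS1 and SAP18 to form the PSAP complex, was 132, 141 and 135 CPM in WT and 138, 166 and 141 CPM in Fmr1-KO. Its log2 fold-change of 0.13 (edgeR adjusted P 0.0515) was not called, the groups overlapped, and it was 0.04 on omitting Fmr1-KO replicate 2. Pnn was called with upper-quartile normalization (edgeR adjusted P 0.0388), library totals alone (edgeR adjusted P 0.0178) and no filter (edgeR adjusted P 0.00239). It also passed with a replicate block and on omitting WT replicate 2, Fmr1-KO replicate 1 or Fmr1-KO replicate 3, but not under DESeq2 (adjusted P 0.31). The count of 6 called genes in this list fell to 3 when Fmr1-KO replicate 2 or WT replicate 1 or 3 was omitted.

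Of 10 NMD factors that contact the EJC, directly or through partners, 3 were higher and 1 was lower by edgeR, with a median log2 fold-change of 0.05. Called genes made up 40% of the list, against 42.6% of all tested genes. Upf3b, which binds the EJC and bridges it to UPF2, had 47.2, 54.1 and 49.0 CPM in WT and 60.4, 66.6 and 59.0 CPM in Fmr1-KO. No libraries overlapped, and its log2 fold-change of 0.31 (SE 0.05; edgeR adjusted P 4.75e-05) was larger than that of any EJC member. Upf2, the next link, rose from 43.9 ± 5.18 to 53.7 ± 4.21 CPM (SD, n = 3), a log2 fold-change of 0.29 (SE 0.06; edgeR adjusted P 0.00102). Upf1, the helicase at the end of this chain, had a log2 fold-change of 0.03 (edgeR adjusted P 0.546), and Smg6, the endonuclease of NMD, rose by 0.18 (edgeR adjusted P 0.000920). Smg8, a regulator of the UPF1 kinase, fell by 0.14 on the log2 scale (edgeR adjusted P 0.0482). That call was lost under DESeq2, upper-quartile normalization, library totals alone and no filter. It was also lost in 5 of the 6 fits that omitted a library, and the log2 fold-change was -0.08 on omitting Fmr1-KO replicate 2.

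Upf3a, the paralog of Upf3b, stood apart from it. It had 51.6, 51.0 and 51.7 CPM in WT and 52.6, 52.1 and 50.01 CPM in Fmr1-KO, a log2 fold-change of 0.00 (SE 0.04; edgeR adjusted P 0.943) whose sign turned when WT replicate 2, Fmr1-KO replicate 1 or Fmr1-KO replicate 2 was omitted. Per length, Upf3a made up 42.7%, 39.1% and 41.9% of Upf3a plus Upf3b in WT and 37.3%, 34.8% and 36.6% in Fmr1-KO. The groups did not overlap, and the difference was -5.01 percentage points (exact permutation P = 0.1, 2-sided, the smallest that 3 against 3 allows). Upf2 and Upf3b were highest in replicate 2 of both genotypes. Without Fmr1-KO replicate 2 their log2 fold-changes were 0.22 and 0.25, and both were still called. For Upf2 the smallest value on omitting a library was 0.21, without WT replicate 3, and it was still called (edgeR adjusted P 0.00815).

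Among 17 measured genes of the TREX complex and mRNA export, the step that follows splicing, 6 were higher and 0 were lower by edgeR, with a median log2 fold-change of 0.09. This made 35.3% called, against 42.6% of all tested genes. Thoc2, a scaffold subunit of TREX, had 101, 104 and 95.5 CPM in WT and 116, 141 and 119.7 CPM in Fmr1-KO, a log2 fold-change of 0.33 (edgeR adjusted P 3.64e-05), or 0.24 without Fmr1-KO replicate 2. Alyref, the export adaptor that binds EJCs, had 59.0, 60.3 and 60.4 CPM in WT and 65.4, 65.2 and 65.4 CPM in Fmr1-KO (log2 fold-change 0.13, edgeR adjusted P 0.00772). Sarnp, a partner of the TREX helicase, rose by 0.15 (edgeR adjusted P 0.0194). Its call was lost under DESeq2 (adjusted P 0.0576) and on omitting WT replicate 3 or Fmr1-KO replicate 1, and omitting either of these libraries also left 3 called genes in the list. Thoc2 and Upf3b lie on chromosome X. Xist, the RNA that coats an inactive X, was 298 to 312 CPM in WT and 825 to 1017 CPM in Fmr1-KO. The median log2 fold-change of 557 tested genes of chromosome X was 0.01, as was that of the autosomes. Of these X genes 139 were higher and 134 lower, against 3319 and 3542 of 16153 autosomal genes. In each direction this was a larger share of the X genes than of the autosomal genes. Of all tested genes, 20.7% were higher and 21.9% were lower. The part of X-linkage in these values was not tested. As pup sex is not given, a difference in sex makeup between the groups cannot be told apart from genotype in any comparison here.

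Of 15 genes of the catalytic spliceosome, on which EJCs are built, 5 were higher and 0 were lower by edgeR, at a median log2 fold-change of 0.05. Cdc5l (0.13, edgeR adjusted P 0.00651) and Slu7 (0.13, edgeR adjusted P 0.00723) were among the called genes whose genotypes did not overlap. The count was 3 when Fmr1-KO replicate 2 or WT replicate 1 or 3 was omitted, 3 under DESeq2, and 9 with library totals alone. The cytosolic relatives of Eif4a3 were not called by edgeR, and factors that work with them were lower or not called. Of 9 genes that encode parts of eIF4F, which starts translation, or factors related to it, 3 were lower and 0 were higher, with a median of -0.07. Eif4a1 and Eif4a2, the helicase paralogs of Eif4a3, had log2 fold-changes of -0.07 (edgeR adjusted P 0.0588) and -0.04 (edgeR adjusted P 0.313). Eif4a1 was called under DESeq2 (adjusted P 0.0328). The scaffold genes Eif4g3 and Eif4g1 fell by 0.23 and by 0.13 on the log2 scale, and Eif4h, a cofactor of eIF4A, fell by 0.10 (edgeR adjusted P 0.0152), a call lost under scaling by totals and on omitting WT replicate 3 or Fmr1-KO replicate 2. The share of called genes in these lists was 60% for assembly partners, 40% for NMD factors, 35.3% for TREX and export, 33.3% for the spliceosome and 33.3% for eIF4F, against 42.6% of all tested genes. By direction, 20.7% of all tested genes were higher and 21.9% were lower.

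**Figure D5:**
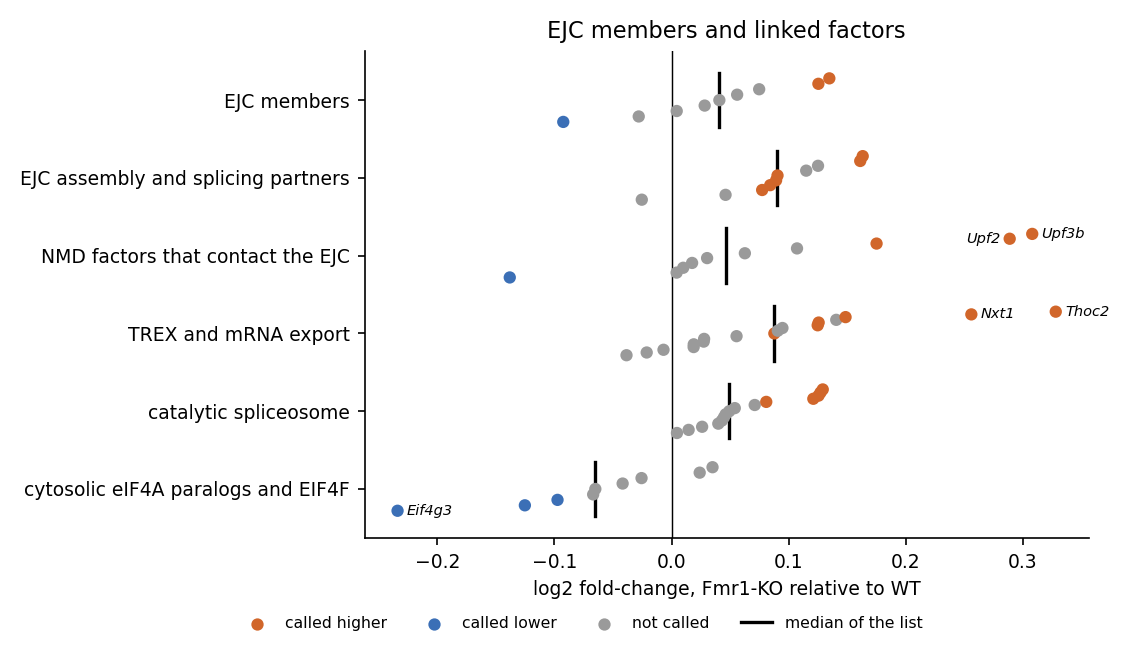
Log2 fold-change in Fmr1-KO relative to WT (horizontal axis) of each tested gene, in rows for the EJC members and 5 lists of linked factors, coloured orange for called higher, blue for called lower and grey for not called, with a black line at each median. Medians run from -0.07 for the eIF4F list to 0.09 for the assembly partners, and Thoc2, Upf3b, Upf2 and Nxt1 lie farthest to the right.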

How the data were processed

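The authors deposited raw counts per gene name. By the study's methods, FastP trimmed the single-end reads, STAR aligned them to GRCm38.p6 and they were counted over exons with featureCounts in reverse-stranded mode, which keeps antisense genes apart. Coordinates, exon lengths and transcripts were from GENCODE M21 (GRCm38), an earlier release than the authors used; 98.6% of tested names were in it. Counts were fitted over all 16976 genes kept by filterByExpr with edgeR 4.0.16 (R 4.3.3): TMM, glmQLFit and glmQLFTest, 2-sided, genotype as the only term, Benjamini-Hochberg adjustment, called at an adjusted P under 0.05. SE is the log2 fold-change over the square root of F, and 95% intervals use its t distribution. The script was tested on simulated data. Replicates differed by more than counting noise (chi-square per degree of freedom 2.93 in WT and 3.18 in Fmr1-KO). Paralog shares were tested by exact permutation (scipy 1.17.1).

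The members and lists were chosen with earlier results of these data known. Named genes were Fmr1, the members, the 3 largest called changes in each direction of a linked list (mean of at least 10 CPM, no overlap between genotypes) and 9 linked genes fixed by name; Xist, Nxt1 and Rnps1-ps were named after their values were seen. A gene that this rule names is not reported here. Alternatives were DESeq2 1.42.0, RLE, upper-quartile and library-total scaling, no low-count filter, a stricter one (at least 10 counts and 5 CPM on average), blocking on replicate number, a minimum fold change of 1.2 and leaving out each library.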

Additional observations from a re-analysis of the deposited data

How the results depend on the processing

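Fmr1 stayed lower under every alternative tried, from -1.03 to -0.94. Of 126 values recomputed for single members, 108 stayed on the same side of 0 and of the threshold, 11 lost a call (9 of them of Rnps1), 3 gained one (all of Casc3) and 4 changed sign near 0. With a minimum fold change of 1.2, which asks for more than the test of any difference, the counts called by edgeR were 0 members, 0 genes in each of the 5 linked lists and 2223 of all genes, against 7231. Leaving out each library gave 2 to 3 called members, 6280 to 6876 genes in all, 3 to 7 assembly partners, 3 to 7 TREX and export genes and 3 to 4 spliceosome genes, with fewer libraries in each fit. Spliceosome genes called were 3 under DESeq2 and 9 with library totals alone, where the core sum differed by 7.03%; the cause was not tested. Over the fits without a library Magohb ran from -0.0241 to 0.0266 and Sap18 from -0.0526 to 0.00194. Library totals moved the median of all genes by 0.0278. Replicate numbers did not pair the libraries (correlations of same-numbered deviations -0.0289, 0.0323 and -0.0147, and not every library correlated best with its own number). With a replicate block 3488 genes were higher and 3694 lower, 3 members were called as before, and Pnn passed (adjusted P 0.0133).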

Other observations

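Counts were looked up for 3 genes related in name to members. Rbm8a2 had 3 to 7 counts a library, too few to be tested, against 3327 to 3844 for Rbm8a. Sap18b had 37 to 51 counts, with a log2 fold-change of -0.07 (edgeR adjusted P 0.803), and Rnps1-ps had 22 to 36 counts, with 0.03 (adjusted P 0.937).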
